A study of Mus musculus with 8 samples.

Results

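The fibroblast growth factor (FGF) ligands and receptors described here were 10 of the 22274 genes measured in primary murine cardiac fibroblasts, taken by their gene symbols: the 7 ligands Fgf1, Fgf2, Fgf7, Fgf9, Fgf10, Fgf18 and Fgf21 and the 3 receptors Fgfr1, Fgfr2 and Fgfr3. Cardiac fibroblasts are the matrix-producing cells of the heart, and all 8 libraries came from cells that had received TGF-β at 5 ng/ml for 24 h, a cytokine that turns fibroblasts into contractile myofibroblasts. Of the 8 RNA-seq libraries, 4 were labelled Ad-EV (GFP), transduced with an empty vector, and 4 were labelled Ad-IRF7, transduced to overexpress the interferon regulatory factor IRF7. All 8 thus carried a virus and the cytokine, so the comparison holds no cells without virus or without TGF-β. The reagent list of the study names an adenovirus in which a CMV promoter drives FLAG-tagged human IRF7 together with EGFP, and an adeno-associated virus in which a periostin promoter drives mouse Irf7. The paper gives adenovirus for this experiment and the description deposited with it an adeno-associated virus. The mice of the study are given as of a C57BL/6 J background, while the sex and age of those that gave these cells are not given in the sources used here. The paper's legend calls its replicates biological but counts fewer than the 4 per group deposited, and the labels do not tie a library to a culture or animal. The p-values measure the spread between these libraries, part of which may be technical.

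FGF ligands are secreted proteins that bind receptor tyrosine kinases at the cell surface with heparan sulfate chains as cofactors. The receptors pass the signal through the adaptor FRS2 to the RAS, RAF, MEK and ERK cascade and to PI3K and AKT, and genes such as the Sproutys and the ERK phosphatases limit it. Fibroblasts make several FGF ligands and are themselves responsive to them, and in the heart FGF2 is known as a mitogen of fibroblasts that is stored in the matrix.

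The total count per library lay between 24454801 and 28658826. The count of mouse Irf7 went against the label. It was 2861, 3680, 2272 and 3291 in the Ad-EV (GFP)-labelled libraries and 385, 421, 380 and 404 in those labelled Ad-IRF7, a log2 fold change of -2.96. The mouse count need not measure a human transgene, for which the table has no row, but reads of a mouse transgene could fall in it. Since the sources name both kinds of vector, what this count says of the labels was not settled, and each direction given here is that of the labels. The 9 fibroblast markers summed to 11465 to 13730 CPM (the usual count unit scaled to library depth) in a library. In each of the 8 libraries the cardiomyocyte marker Myl3 had no count, and 8 of 9 cardiomyocyte markers were under 1 CPM on average, the exception being Tnnt2.

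Of the 10 FGF genes, 9 passed the test at an adjusted p under 0.05 (edgeR quasi-likelihood test, Benjamini-Hochberg over 13533 genes), beside 58.9% of all tested genes. In the libraries labelled Ad-IRF7, 5 were higher (Fgfr1, Fgf1, Fgf2, Fgf7 and Fgf21; 29.0% of tested genes were higher) and 4 were lower (Fgfr2, Fgfr3, Fgf9 and Fgf18; 29.9% of tested genes were lower). The 2 most abundant members, Fgfr1 and Fgf2, both more than doubled. Fgfr2 and Fgf9 fell to less than a 3rd of their level. With Fgfr1 and Fgf2 these were the 4 members past a log2 fold change of 1 in either direction, a line passed by 8.56% of tested genes. The same 9 genes had groups without overlap, as for 53.8% of tested genes. Permuting the labels over log2 CPM (exact, two-sided) gave p = 0.029 for each of the 9, the smallest that 4 against 4 libraries allow. Groups without overlap give this value in any case, so it restates the lack of overlap. In bulk RNA, a change in the number of cells of a type and a change in RNA per cell cannot be told apart.

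**Figure D1:**
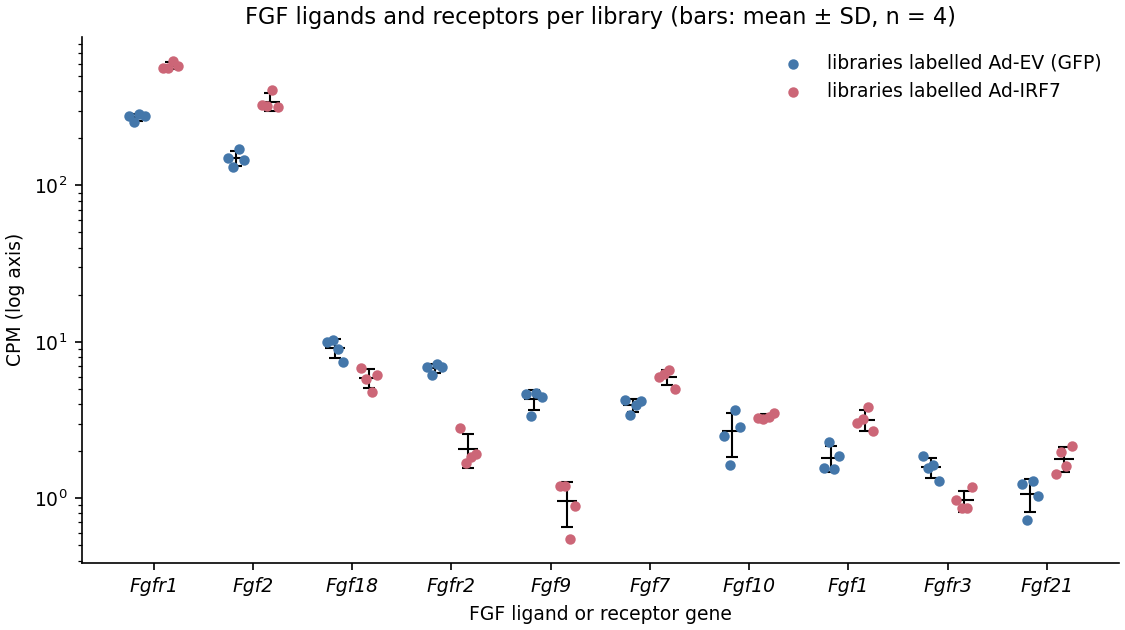
CPM of the 10 FGF genes on a log axis, ordered by level, with 1 point per library and bars for mean ± SD (n = 4). Fgfr1 and Fgf2 lie above 100 CPM in every library and the other members below 11 CPM, and Fgf10 is the member whose groups overlap.

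The sums of some cell type markers also differed between the groups. The counts of markers that passed are set beside 58.9% of all tested genes, 29.0% higher and 29.9% lower. The 7 epicardial markers summed to 151 to 159 CPM in the Ad-EV (GFP)-labelled libraries and to 105 to 120 CPM in those labelled Ad-IRF7, with 2 of the 6 tested genes higher and 2 lower and Lrrn4 the most abundant. The 8 macrophage markers summed to 275 to 329 and 331 to 371 CPM, with 3 higher and none lower of 8 tested. Lyz2 made up most of these sums (202 ± 15.9 and 235 ± 11.4 CPM). The 9 fibroblast markers summed to 13011 to 13730 and 11465 to 12078 CPM, with 1 higher and 5 lower of 9 tested. Pdgfra was higher (log2 fold change 0.25). Tcf21 (-1.33), Col3a1 (-0.53), Postn (-0.38), Lum (-0.35, with overlapping groups) and Col1a1 (-0.16) were lower. The cardiomyocyte markers summed to 9.95 to 13.6 and 7.70 to 9.77 CPM. The sums of the 8 endothelial markers (230 to 243 and 233 to 261 CPM) and of the 7 mural markers (125 to 137 and 107 to 129 CPM) overlapped between groups, but genes within them passed in both directions, 3 higher and 1 lower of 8 tested endothelial and 2 higher and 3 lower of 6 tested mural markers. The part of these cells in the changes of the FGF genes, and of the pathway genes given further on, was not tested.

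Among the receptors, Fgfr1 had by far the highest level and more than doubled, while the other receptors fell. Fgfr1, the receptor that predominates in mesenchymal cells (ENSMUSG00000031565, GRCm38 chr8:25513654-25575718, plus strand), had 276, 253, 286 and 278 CPM in the Ad-EV (GFP)-labelled libraries and 562, 562, 627 and 576 CPM in those labelled Ad-IRF7. The lowest library labelled Ad-IRF7 thus lay far above the highest labelled Ad-EV (GFP), and the spread within a group was small (273 ± 14.3 and 582 ± 30.6, SD, n = 4). The log2 fold change was 1.09 (SE 0.04, adjusted p = 7.1e-11, edgeR), or 2.13-fold with a 95% interval of 1.99 to 2.27.

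Fgfr2, whose splice forms are read by epithelial and by mesenchymal cells (ENSMUSG00000030849, chr7:130162451-133123350, minus strand), went the other way. Its counts were 186, 153, 178 and 180 against 73, 49, 47 and 47, or 6.79 ± 0.463 and 2.07 ± 0.516 CPM. The log2 fold change was -1.72 (SE 0.15, adjusted p = 1.9e-07, edgeR), which is 3.29-fold lower. Its annotated span covers most of Ctbp2, a transcriptional corepressor gene on the same strand with which it shares 314 exonic bases. The RefSeq start used for Fgfr2 in the motif search lies far inside this span, just after the stretch chr7:130266809-130267058 on the minus strand. The merged exons behind its counts per kilobase are those of the whole span. Ctbp2 was higher in the libraries labelled Ad-IRF7 (43.4 ± 0.942 and 57.1 ± 0.447 CPM, log2 fold change 0.39), the opposite direction to Fgfr2.

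Fgfr3, best known as a brake on bone growth (ENSMUSG00000054252, chr5:33721674-33737068, plus strand), was the receptor with the fewest reads, with counts of 50, 39, 40 and 34 against 25, 25, 22 and 29. The log2 fold change was -0.72 (SE 0.22, adjusted p = 0.011, edgeR), but on FPKM, a fragment count scaled for gene length and depth, it did not pass. It was -0.17 on log2(FPKM + 1), a scale that understates changes of low genes (limma, adjusted p = 0.23), and -0.36 on log2(FPKM + 0.1) (limma, adjusted p = 0.26). Fgfr3 shares 998 exonic bases with an opposite-strand gene that is absent from the deposited counts. Fgfr1 (164 bases) and Fgf10 (123 bases) also overlap opposite-strand genes absent from the counts, and Fgf2 (255 bases) a same-strand one. The strand setting of the counting is not given in the sources used here. Fgfr4 had at most 4 counts in any library and was not tested.

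**Figure D2:**
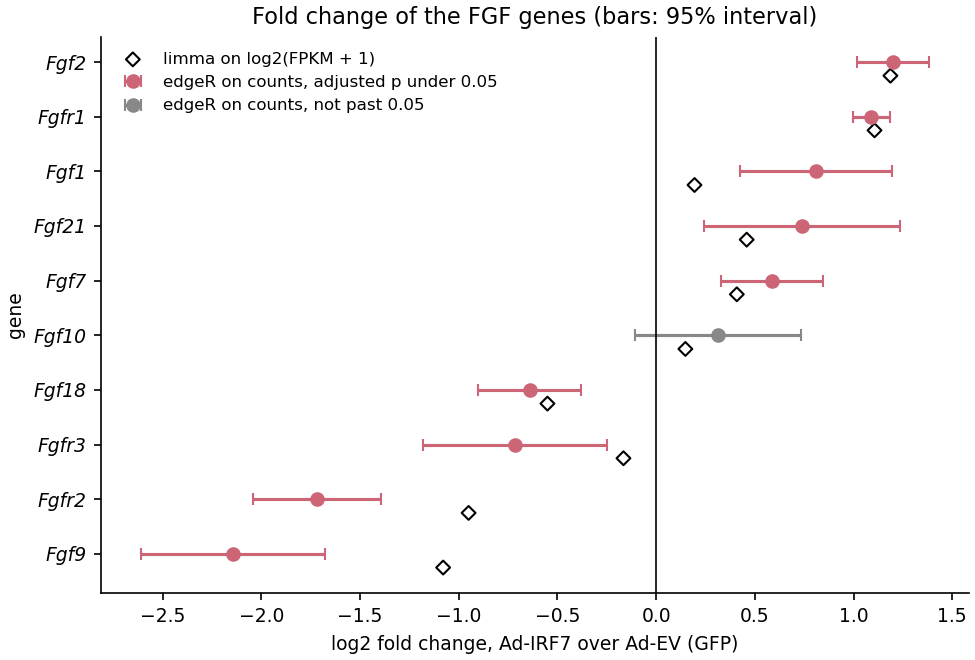
Log2 fold change of each FGF gene, libraries labelled Ad-IRF7 over Ad-EV (GFP), from edgeR on counts (circles, bars for the 95% interval) and from limma on log2(FPKM + 1) (diamonds). Both put Fgf2 and Fgfr1 above 1, and the diamonds of the other 8 genes lie nearer to 0 than the circles.

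Among the ligands, Fgf2, also called basic FGF (ENSMUSG00000037225, chr3:37348346-37410108, plus strand), was by far the most abundant. It had 150, 131, 171 and 145 CPM in the Ad-EV (GFP)-labelled libraries and 325, 320, 410 and 316 CPM in those labelled Ad-IRF7. Replicate 3 was the highest library of each group, and the groups did not overlap. The log2 fold change was 1.20 (SE 0.09, adjusted p = 1.8e-08, edgeR), or 2.30-fold with a 95% interval of 2.03 to 2.61, and 1.10 without Ad-IRF7 replicate 3. Fgf2 shares 640 exonic bases with Nudt6, which is transcribed from the opposite strand and known as the antisense gene of Fgf2, and the strand setting of the counting is not given in the sources used here. Nudt6 had 43 to 99 counts in a library and did not pass the test (log2 fold change -0.31, SE 0.20, adjusted p = 0.19, edgeR).

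Fgf9 and Fgf18 were the ligands that fell. Fgf9, which in the developing heart is made by the epicardium and endocardium and acts on the myocardium (ENSMUSG00000021974, chr14:58070547-58112720, plus strand), had counts of 124, 84, 117 and 117 against 31, 35, 14 and 22. Its log2 fold change of -2.14 (SE 0.22, adjusted p = 8.5e-07, edgeR) was the largest in size of the 10 genes, 4.42-fold lower, from 4.30 ± 0.633 to 0.962 ± 0.312 CPM. Fgf18, a ligand of cartilage and lung development (ENSMUSG00000057967, chr11:33117430-33147400, minus strand), had counts of 266, 257, 221 and 196 against 175, 168, 122 and 151. It was 1.56-fold lower (log2 fold change -0.64, SE 0.12, adjusted p = 0.00039, edgeR).

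Fgf7, Fgf1 and Fgf21 rose from low levels. Fgf7, the keratinocyte growth factor that mesenchymal cells send to epithelia (ENSMUSG00000027208, chr2:126034658-126091185, plus strand), had counts of 114, 85, 97 and 110 against 154, 180, 167 and 123, a log2 fold change of 0.59 (SE 0.12, adjusted p = 0.00075, edgeR). Fgf1, acidic FGF, which binds all FGF receptors (ENSMUSG00000036585, chr18:38838673-38929472, minus strand), had counts of 42, 57, 38 and 49 against 78, 93, 97 and 66. Its log2 fold change was 0.81 (SE 0.18, adjusted p = 0.0013, edgeR), but on log2(FPKM + 1) it was 0.19 and did not pass (limma, adjusted p = 0.33). Fgf21, an endocrine FGF that cells release under stress and that signals through a receptor with β-Klotho (ENSMUSG00000030827, chr7:45613886-45615490, minus strand), had counts of 33, 18, 32 and 27 against 37, 57, 41 and 53. The nearest libraries of its groups were 1.30 and 1.43 CPM, and its log2 fold change was 0.74 (SE 0.23, adjusted p = 0.013, edgeR). The gene of β-Klotho, Klb, had at most 2 counts in any library.

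Fgf10, of the same subfamily as Fgf7 (ENSMUSG00000021732, chr13:118669791-118792115, plus strand), was the member that did not pass the test. Its counts were 67, 41, 91 and 75 against 84, 93, 84 and 87. The libraries labelled Ad-EV (GFP) were spread widely (coefficient of variation 31.7%) and those labelled Ad-IRF7 lay close together (4.29%). The log2 fold change was 0.31 with a 95% interval of -0.11 to 0.73 (adjusted p = 0.18, edgeR), and without Ad-EV (GFP) replicate 3, the highest of its group, it was 0.50 and passed (adjusted p = 0.036, edgeR).

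The stretches just before RefSeq start sites of 3 ligands that differed are shown: Fgf9 and Fgf18, which fell, and Fgf21, which rose. Those of Fgf2, Fgf7, Fgfr2 and Fgfr3, which also differed, are not shown. Fgf21 was the only member with a match to a motif searched here, and whether the match bears on its rise was not tested. The 3 stretches shown are 250 bases each from RefSeq (GRCm38.p6), read 5′ to 3′ on the strand of the gene. Fgf9 is chr14:58072436-58072685 (plus), Fgf18 is chr11:33147401-33147650 (minus) and Fgf21 is chr7:45615491-45615740 (minus). The Fgf9 stretch lies inside the annotated span of the gene, which begins at 58070547, but outside its exons. Capitals mark a match to the ATF4-CHOP element, a site of the stress response.
Fgf9: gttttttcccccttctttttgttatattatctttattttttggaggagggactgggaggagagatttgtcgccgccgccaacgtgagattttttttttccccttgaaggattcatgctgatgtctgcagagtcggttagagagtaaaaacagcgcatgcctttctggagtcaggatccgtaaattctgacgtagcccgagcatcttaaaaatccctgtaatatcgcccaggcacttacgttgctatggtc
Fgf18: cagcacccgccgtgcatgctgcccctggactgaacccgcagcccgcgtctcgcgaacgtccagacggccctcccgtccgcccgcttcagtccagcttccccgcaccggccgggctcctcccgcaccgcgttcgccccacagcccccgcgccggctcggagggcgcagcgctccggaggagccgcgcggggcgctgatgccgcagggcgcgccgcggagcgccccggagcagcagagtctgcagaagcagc
Fgf21: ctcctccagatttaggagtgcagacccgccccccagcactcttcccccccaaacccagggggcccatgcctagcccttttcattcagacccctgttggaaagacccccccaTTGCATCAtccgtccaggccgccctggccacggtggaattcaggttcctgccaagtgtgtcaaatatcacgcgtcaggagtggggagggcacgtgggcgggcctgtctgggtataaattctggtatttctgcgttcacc
The Fgf18 stretch is rich in G and C (77.2%, with 37 CG dinucleotides) and the Fgf9 stretch is not (44.8%, 11 CG dinucleotides). The Fgf21 stretch lies between them in G and C (59.6%) but has the fewest CG dinucleotides of the 3 (9). Windows from 250 bases before to 50 after the start were searched on both strands for 4 motifs, and 8 of the 10 genes had a window, 9 windows in all. The interferon-stimulated response element core, to which interferon regulatory factors bind, was in 0 of these 9 and in 3.44% of all 32851 windows. The AP-1 site TGANTCA was in 0 of 9 and in 7.81% of all, and the SMAD palindrome GTCTAGAC in 0 of 9 and in 0.213% of all. The ATF4-CHOP element TGATGNAA was in 1 of 9 and in 3.97% of all. This was Fgf21, with TTGCATCA on the reverse strand starting at -139 from the start site. In the Fgf2 window all 250 bases before the start lie in annotated exons of Fgf2. With 9 windows these counts are descriptions, and a match is not a bound site.

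Because FPKM are per length, the members' levels can be set side by side within a group. In the Ad-EV (GFP)-labelled libraries, Fgfr1 was highest with 75.4 ± 3.77 FPKM, followed by Fgf2 with 25.8 ± 3.07 and Fgf18 with 8.65 ± 1.21 FPKM, and no library of one overlapped the next. Fgf9 (2.14 FPKM) and Fgfr2 (2.06) overlapped each other, Fgf7 (1.53) lay below Fgfr2 and above Fgf21 in every library, and Fgf21 (1.11), Fgf1 (0.815), Fgfr3 (0.648) and Fgf10 (0.645) each overlapped the next. In the libraries labelled Ad-IRF7 the first 3 places were the same, with 164 ± 9.27, 59.9 ± 7.41 and 5.59 ± 0.898 FPKM. Fgf7 (2.36) and Fgf21 (1.90) came next and overlapped, and the other 5, from Fgf1 (1.04) to Fgfr3 (0.455), each overlapped the next. The order depends on the gene lengths behind FPKM. With CPM per kilobase of merged exons, added after the data were seen, Fgf7 and Fgf21 lay above Fgf9 and Fgfr2 in both groups, with Fgf9 6th and Fgfr2 7th in the Ad-EV (GFP)-labelled libraries and 8th and 9th in those labelled Ad-IRF7. On that scale Fgfr1 and Fgf2 overlapped in the libraries labelled Ad-IRF7 (56.9 to 63.4 and 46.5 to 60.4 CPM per kilobase), and the first 3 places were as with FPKM.

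The summed FPKM of the 3 receptors rose from 78.1 ± 3.97 to 165 ± 9.20 (2.11-fold), and that of the 7 ligands from 40.6 ± 3.22 to 72.1 ± 6.65 (1.77-fold), each with an exact permutation p = 0.029. Within each sum, the gene that was already most abundant took a larger share. Fgf2 made up 61.2%, 59.2%, 66.7% and 65.9% of the ligand FPKM in the Ad-EV (GFP)-labelled libraries and 81.4%, 81.6%, 86.7% and 82.0% in those labelled Ad-IRF7, a difference of 19.7 percentage points. Fgf18 went from 21.4% ± 3.72 to 7.86% ± 1.72 and Fgf9 from 5.24% ± 0.686 to 0.686% ± 0.294, a difference of -4.55 points that was -2.38 with counts per kilobase of merged exons in place of FPKM. The share of Fgf7 was lower too (3.76% ± 0.248 and 3.27% ± 0.213), although its own level rose, but with counts per kilobase its difference did not pass (exact permutation p = 0.057). Among the receptors, Fgfr1 went from 96.5% ± 0.556 to 99.4% ± 0.146, Fgfr2 from 2.64% ± 0.260 to 0.358% ± 0.108 and Fgfr3 from 0.823% ± 0.332 to 0.278% ± 0.056. These 7 of 10 shares had an exact permutation p = 0.029, which is 0.041 after Benjamini-Hochberg adjustment over the 10. Within the same sum, a larger share of the leading gene makes the others smaller. The 7 are thus not independent of each other or of the fold changes of the genes. The shares of Fgf1 (2.04% and 1.44%; adjusted exact p = 0.48), Fgf10 (1.57% and 1.13%; 0.14) and Fgf21 (2.72% and 2.67%; 0.97) did not pass.

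**Figure D3:**
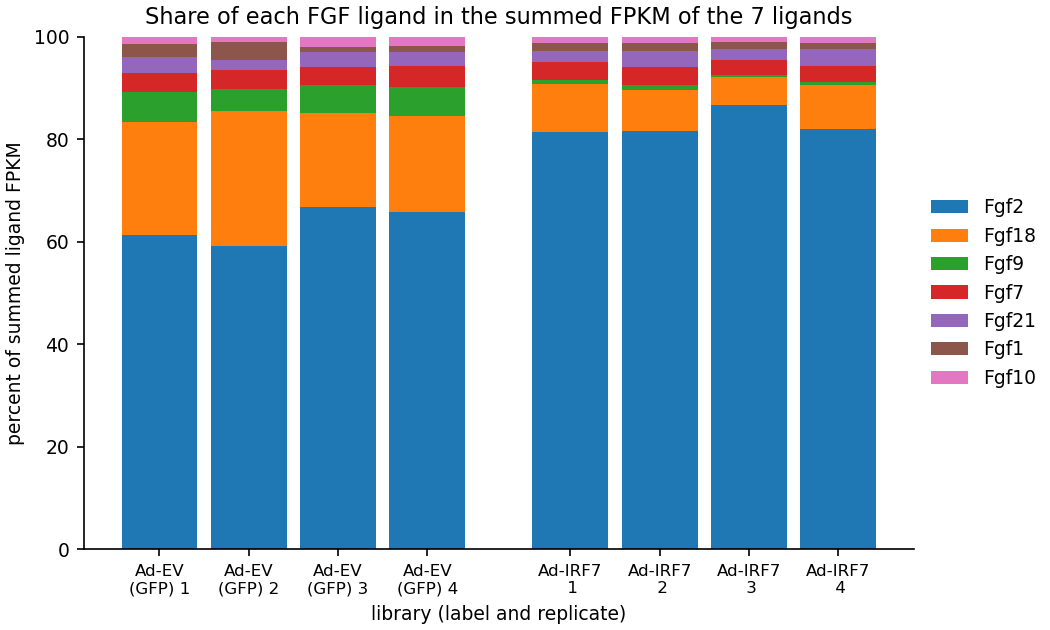
Share of each of the 7 ligands in their summed FPKM, 1 bar per library, in percent. Fgf2 takes 59.2% to 66.7% in the Ad-EV (GFP)-labelled libraries and 81.4% to 86.7% in those labelled Ad-IRF7, while the bands of Fgf18 and Fgf9 are narrower in the latter.

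FPKM and counts did not rank the libraries alike for every member. The FPKM per CPM of a gene would be nearly the same in each library if both came from the same reads and length. For Fgf2, Fgf7, Fgf10, Fgf18, Fgf21 and Fgfr1 the highest library was at most 1.11 times the lowest. For Fgf1 it was 2.70 times, with 0.664, 0.582, 0.279 and 0.246 FPKM per CPM in the Ad-EV (GFP)-labelled libraries and 0.387, 0.368, 0.299 and 0.254 in those labelled Ad-IRF7. For Fgfr3 it was 1.77 times, with 0.509 and 0.50 in replicates 1 and 3 labelled Ad-EV (GFP) but 0.288 and 0.293 in replicates 2 and 4. Fgf9 (1.42 times) and Fgfr2 (1.39 times) lay between. Fgf1 and Fgfr3 were the members that passed on counts and not on log2(FPKM + 1).

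**Figure D4:**
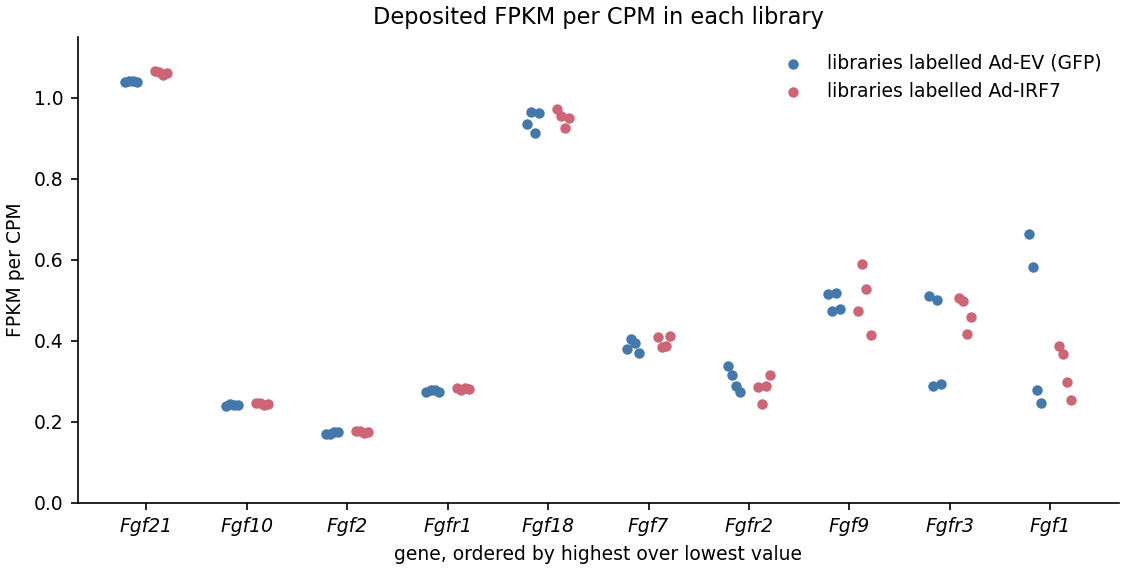
Deposited FPKM divided by CPM for each FGF gene and library, genes ordered by the highest over the lowest value. The points of 6 genes lie close together, while those of Fgf1 spread from 0.246 to 0.664 and those of Fgfr3 from 0.288 to 0.509.

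The rest of the pathway was described by lists of genes, beside a median log2 fold change of 0.00 and 58.9% called over all tested genes. Of 21 other genes of the FGF family and its co-receptors, 7 were tested, and 1 was higher and 3 were lower (57.1% called, near the share over all genes, median -0.40). Fgfrl1, a receptor without the kinase domain, was lower (71.3 ± 5.03 and 39.1 ± 1.70 CPM, log2 fold change -0.87, adjusted p = 3.9e-09, edgeR). So were Fgf13 (2.95 ± 0.216 and 0.901 ± 0.307 CPM) and Fgf14 (6.74 ± 0.622 and 2.80 ± 0.285 CPM), which stay inside the cell and bind sodium channels. Fgf16, a ligand of the Fgf9 subfamily, was higher (1.5 ± 0.295 and 2.60 ± 0.424 CPM, log2 fold change 0.79). Fgf9 and Fgf16 thus passed in opposite directions.

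Of 21 genes of heparan sulfate proteoglycans and the enzymes that build and trim their chains, 20 were tested, with 5 higher and 12 lower (85% called, median -0.18). The glypicans Gpc4 (368 ± 8.86 and 163 ± 5.41 CPM, log2 fold change -1.18) and Gpc3 (1.25 ± 0.155 and 0.376 ± 0.142 CPM, -1.73) and the sulfotransferase Hs6st2 (244 ± 5.24 and 129 ± 4.17 CPM, -0.92) fell most. The syndecan Sdc4 (67.6 ± 4.59 and 106 ± 8.93 CPM, 0.64), the sulfotransferase Ndst2 (0.52) and the glypican Gpc1 (0.26) rose most. Of 7 membrane partners of the receptors, 6 were tested and Flrt2 alone passed, 16.7% (log2 fold change 1.13, adjusted p = 0.00015, edgeR). The count of partners that were higher was 3 without Ad-EV (GFP) replicate 4 and without Ad-IRF7 replicate 3. Flrt2, a leucine-rich membrane protein that binds FGF receptors, had counts of 5206, 3265, 6064 and 4591 against 10025, 9309, 15446 and 7909. Like Fgf2, it was highest in replicate 3 of each group.

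Of 23 signal transducers, all were tested, and 5 were higher and 12 lower (73.9% called, median -0.12). The kinase Map2k1 (MEK1) was higher (185 ± 9.61 and 297 ± 15.8 CPM, log2 fold change 0.69). The GTPase Nras (134 ± 4.41 and 67.2 ± 2.75 CPM), the kinase Braf (91.6 ± 2.62 and 54.1 ± 1.24 CPM, -0.76) and the docking protein Gab1 (-0.60) were lower.

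Of 10 feedback inhibitors, 9 were tested, with 4 higher and 2 lower (66.7% called, near the share over all genes, median 0.17). Spry1, a Sprouty that dampens receptor signalling, fell from 99.6 ± 6.96 to 31.3 ± 6.75 CPM (log2 fold change -1.67, adjusted p = 7.8e-09, edgeR), and Spry2 fell by 0.19 on the log2 scale with overlapping groups. Spred3 (0.80), Spred2 (0.59) and Cbl (0.22), the last a ubiquitin ligase of activated receptors, rose. The other 3 did not pass, among them the ERK phosphatase Dusp6 (log2 fold change 0.08, adjusted p = 0.39, edgeR), a common readout of FGF signalling.

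The 11 genes known to respond to ERK were all tested, with 8 higher and 2 lower (90.9% called, median 0.61), the list with the highest median. Fosl1, an AP-1 subunit, rose from 8.02 ± 1.02 to 37.1 ± 4.83 CPM (log2 fold change 2.21, adjusted p = 2.2e-10, edgeR). The nuclear ERK phosphatase Dusp5 rose from 2.23 ± 0.201 to 7.20 ± 0.611 CPM (1.69) and the ETS factor Etv4 from 7.60 ± 0.588 to 18.6 ± 1.93 CPM (1.29). Its relative Etv1 fell from 82.4 ± 3.09 to 46.2 ± 2.98 CPM (-0.83) and the cyclin Ccnd1 from 359 ± 25.9 to 259 ± 22.9 CPM (-0.47), while the third of these ETS factors, Etv5, had 23.4 ± 1.70 and 23.6 ± 1.13 CPM and did not pass. Many other pathways act on these genes, and no protein or phosphorylation was measured here.

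**Figure D5:**
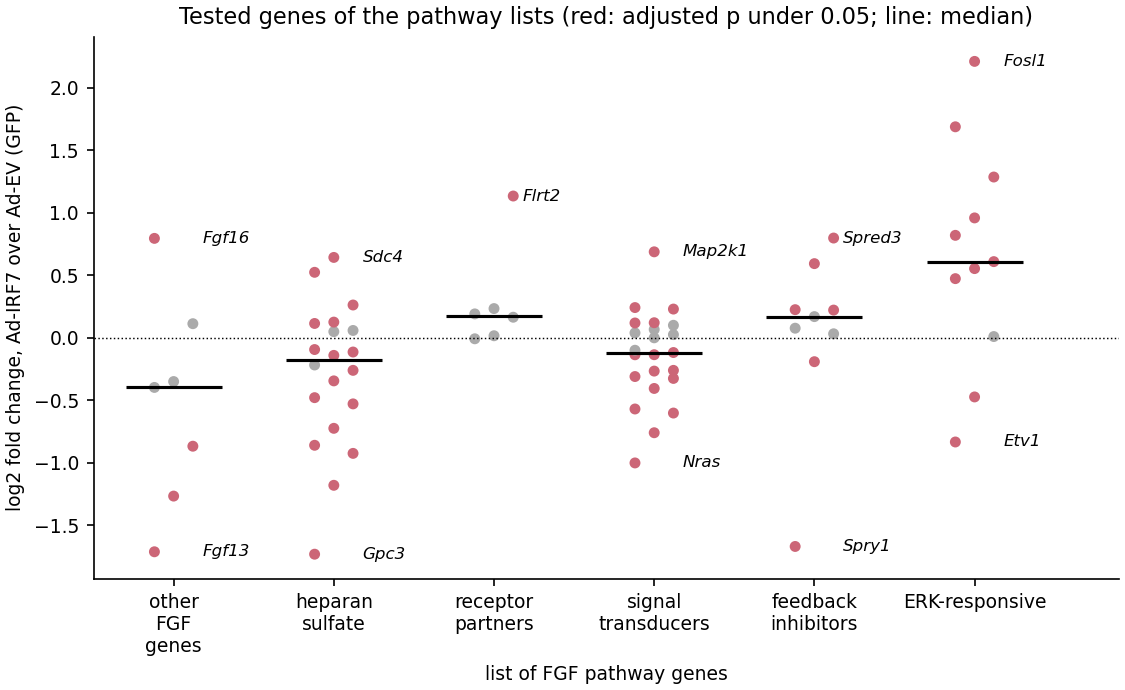
Log2 fold change of each tested gene of the 6 pathway lists, libraries labelled Ad-IRF7 over Ad-EV (GFP), red where the adjusted p was under 0.05 (edgeR) and with a line at the median. The median is highest in the ERK-responsive list (0.61) and lowest among the other FGF genes (-0.40), and each list but the receptor partners holds red points on both sides of 0.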

How the data were processed

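RNA-seq of 8 libraries of TGF-β-treated murine cardiac fibroblasts was used. Per the study's methods, the authors trimmed reads with Trimmomatic, mapped them to GRCm38 with HISAT2 and counted them per gene with HTSeq-count. They deposited these raw counts and FPKM from Cufflinks. Versions and the strand setting are not given in the sources used here. The table also holds the authors' own comparison (group means, log2 fold change, p-value and FDR), which was not used. The paper names adenovirus and the deposited description an adeno-associated virus, and their extraction and library kits are not the same. All 4 libraries per group were used. Letters of 121 gene symbols had been overwritten and were restored by Ensembl identifier, and 22219 of 22274 identifiers were found in the gene names.

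Counts were filtered by filterByExpr, which left 13533 genes with all 10 members, scaled by TMM (factors 0.989 to 1.01) and compared without covariates by glmQLFit and glmQLFTest in edgeR 4.0.16 (R 4.3.3), with Benjamini-Hochberg adjustment over these genes and a threshold of 0.05. CPM carry the TMM scaling. Single values and shares of FPKM were compared by exact two-sided permutation tests. Pairs of replicates differed beyond sampling noise (chi-square per degree of freedom of at least 2.69). Totals of at least 24454801 counts limit the precision of genes near 1 CPM.

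Alternatives were DESeq2 1.42.0, other scalings and filters, limma 3.58.1 on log2(FPKM + 1), with a pseudocount of 0.1, or without its filter of a mean of 0.1 FPKM, a block for the replicate number, fits without each library in turn, and counts per kilobase of merged exons for the shares and, added after the data were seen, the order of levels. Named are all members, genes overlapping them that the table counts, Irf7, and per pathway list up to 3 called genes a direction with the largest change, some of which are not reported here. Klb, Fgfr4, Dusp6, Etv5 and marker genes were named after their values were seen, as was Fgf23. The members and lists were chosen with earlier results of these data known. The scripts were tested on simulated data.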

Additional observations from a re-analysis of the deposited data

Results flagged for a closer look

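Of 40 groups of 4 values examined for a library far from the other 3, 3 stood out, and chance gives about 1 in 20. The 40 are not independent, since they hold the level and the share of the same gene and shares of the same sum. Fgf2 was at 410 CPM in Ad-IRF7 replicate 3, against 316 to 325 CPM in the other libraries of that label. In the same library, Fgf2 made up 86.7% of the ligand FPKM, against 81.4% to 82.0%. Without this library the log2 fold change of Fgf2 was 1.10. Fgf9 made up 4.22% of the ligand FPKM in Ad-EV (GFP) replicate 2, against 5.49% to 5.69% in the others of its label.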

How the results depend on the processing

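The number of FGF genes past the threshold was 7 to 10 over the alternatives, beside 9 as reported. It was 7 in the 3 limma fits on FPKM, where Fgf1 (0.19, 0.43 and 0.19, adjusted p 0.33, 0.30 and 0.43) and Fgfr3 (-0.17, -0.36 and -0.17, adjusted p 0.23, 0.26 and 0.28) kept their sign and did not pass, and 10 without Ad-EV (GFP) replicate 3, where Fgf10 passed. In the leave-one-out fits it was 9 to 10, with 5 to 6 higher and 4 lower in each. No log2 fold change of a member changed sign. That of Fgf9 ran from -2.28 to -1.08 and that of Fgfr2 from -1.90 to -0.95, nearest to 0 with log2(FPKM + 1), whose pseudocount shrinks low genes. Fgf2 without a library lay between 1.10 and 1.28 and Fgfr1 between 1.05 and 1.11. With counts per kilobase of merged exons the share of Fgfr2 differed by -1.96 and that of Fgf9 by -2.38 percentage points, and that of Fgf7 by -0.59, which no longer passed. Other FGF genes that were higher numbered 2 with a minimum of 1 count in total, and receptor partners 3 with the replicate block.

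Same-numbered libraries of the 2 groups correlated in their deviations from the group means by 0.0792 to 0.138, each library best with its own number. The labels tie no number to a batch or animal, so what same-numbered libraries share is not known. The main test did not pair them. With the replicate block, 9 FGF genes passed (5 higher, 4 lower), and 8211 of all genes in place of 7969. Genes near 1 CPM, such as Fgf21 and Fgfr3, are limited by depth.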

Other observations

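Fgf23, an endocrine FGF of bone, did not pass the filter on low counts. It had 1, 5, 1 and 2 reads in the Ad-EV (GFP)-labelled libraries and 7, 13, 8 and 24 in those labelled Ad-IRF7, without overlap, and with a minimum of 1 count in total its log2 fold change was 2.44 (SE 0.65, adjusted p = 0.0040, edgeR). It was named after its values were seen.

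Within the Ad-EV (GFP)-labelled libraries, replicates 2 and 3 often lay at the ends of the range of an FGF gene. Replicate 2 was the lowest of its group for 7 of the 10 members, beside 28.8% of all tested genes, and the highest for 2, beside 27.8%. Replicate 3 was the highest for 6 of 10, beside 24.4% of tested genes, and the lowest for 1, beside 25.2%. The count of mouse Irf7 in this group was highest in replicate 2 (3680) and lowest in replicate 3 (2272). With 4 libraries no relation was tested, and this order was seen in the data. The 10 members are not replicates of a library. Among the libraries labelled Ad-IRF7, replicate 2 was most often the lowest (4 of 10, beside 24.3% of tested genes). Replicate 3 of that label was most often the highest (4 of 10, beside 28.6%).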
